A study of Schizosaccharomyces pombe with 6 samples.

Results

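The MADS-box genes *mbx1* and *map1* and the forkhead genes *sep1*, *fkh2*, *fhl1* and *mei4* of fission yeast encode transcription factors of 2 DNA-binding families. They were taken by gene name and are 6 of the 6291 genes with counts. The libraries come from *nup211-so* cells, 3 cultures with thiamine and 3 without it, each a separate biological replicate. All 6 carried *nup211::P81nmt1 ura4+*, in which a thiamine-repressible promoter and a marker stand before *nup211*, the gene of an essential nuclear pore protein, along with the alleles *leu1-32*, *ura4-D18* and also *ade6-M210*, and their mating type was h+. Thiamine was given at 30 µM (10 µg/ml) for 24 h, after which the cells were washed and grown in fresh thiamine medium for another 24 h from an OD600 of 0.05. The control cultures grew in Edinburgh Minimal Medium with adenine and leucine and no thiamine. A strain with the normal *nup211* promoter was not used here, so effects of thiamine itself and of the promoter shut-off cannot be told apart.

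In dividing fission yeast, Mbx1, Sep1 and Fkh2 belong to the complex that binds the pombe cell cycle box (PCB) of genes transcribed at the M-G1 boundary. Sep1 promotes that transcription, Fkh2 restrains it for most of the cycle, and Mbx1 is their MADS-box partner. Map1 works with the mating type protein Pc to switch on the genes of P cells, Mei4 drives the middle wave of meiotic transcription, and Fhl1 is linked to nutrient signalling through TORC1, the target of rapamycin kinase complex.

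With thiamine the mRNA levels of *mbx1* (6.002-fold), *fhl1* (4.59-fold) and *fkh2* (2.91-fold) were higher and that of *map1* was 3.16-fold lower, whereas *sep1* and *mei4* were not called in either direction. Thus 4 of the 6 genes passed an adjusted p of 0.05 in the quasi-likelihood test of edgeR, with p-values adjusted after Benjamini and Hochberg over the 5434 genes tested. Calls were common in this comparison, as 69.8% of all tested genes were called, 34.5% higher and 35.3% lower (1877 and 1917 genes). The split followed the scaling: upper-quartile normalization gave 1368 genes higher and 2583 lower, and library totals gave 2724 higher and 588 lower. The groups did not overlap for 4 of the 6 genes, against 75.5% of all genes, with thiamine above in 3 (37.3% of all genes) and below in 1 (38.2%), so the number of calls does not set these families apart. The sizes were less common. Only 2.25% of tested genes had a log2 fold change at least as large as that of *mbx1*, 3.51% for *fhl1* and 8.54% for *fkh2*, and 4.56% had one as low as that of *map1*.

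**Figure D1:**
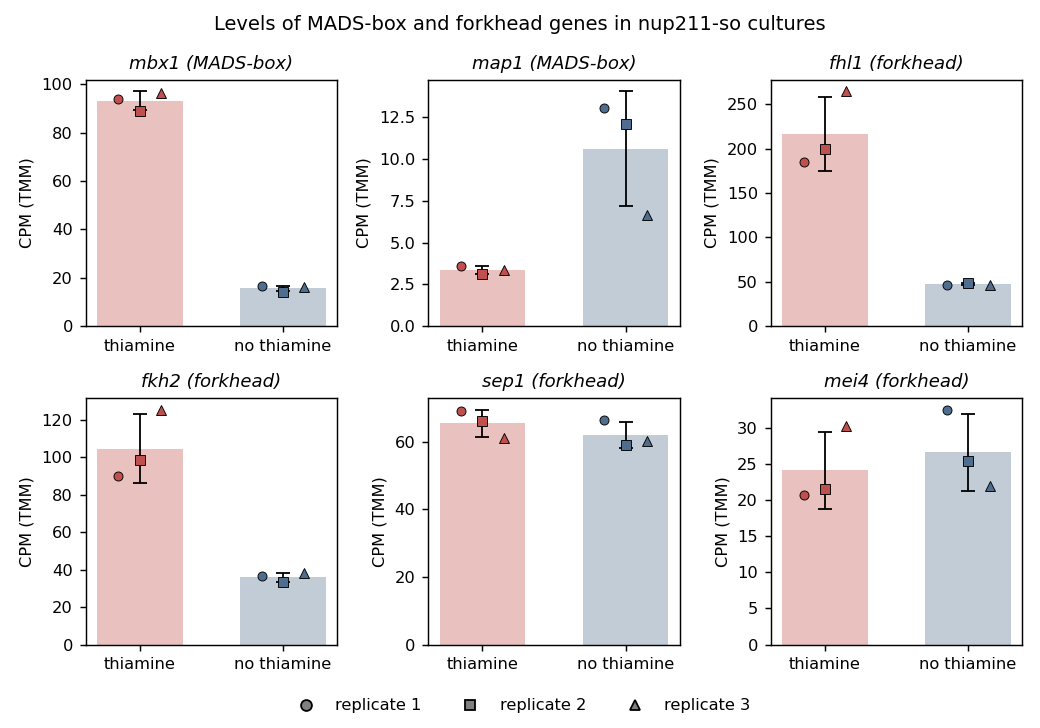
Counts normalized by TMM (trimmed mean of M-values) and scaled to a library of 1000000 (CPM, vertical axis) of the 6 genes, with thiamine left and no thiamine right; symbols are the 3 cultures of a group, bars the mean and error bars the SD. The groups lie apart for *mbx1*, *fhl1*, *fkh2* and *map1* and overlap for *sep1* and *mei4*.

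The libraries labelled thiamine held 37195197 to 48815139 counts and those without thiamine 43629667 to 47036833. Ribosomal RNA genes took 46.3%, 28.7% and 24.6% of the counts with thiamine and 42.7%, 41.2% and 49% without it. *nup211* itself was not called (12.3 ± 0.887 with thiamine and 13.8 ± 1.51 without, SD, n = 3 each, in TMM-normalized counts per 1000000, CPM), with a log2 fold change of -0.17. The value was 0.40 and not called with library totals (adjusted p = 0.0851, edgeR), but it was called lower with upper-quartile normalization (-0.47, adjusted p = 0.00686) and with length and GC trends removed (-0.73, adjusted p = 0.000575). Other genes overlap 4984 of the 5701 bp of *nup211*. The marker *ura4* averaged 23.6 CPM with thiamine and 79.4 CPM without, a log2 fold change of -1.75. Counts of *nmt1*, the gene whose promoter responds to thiamine, were 0, 3 and 2 with thiamine and 1631, 2061 and 1858 without (chosen after its values were seen). The median log2 fold change of all genes was -0.01 with TMM, but -0.31 with upper-quartile normalization, 0.31 with totals without rRNA and 0.57 with library totals. In these bulk RNA samples, fewer cells of a type and less RNA per cell cannot be told apart.

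*mbx1* (SPBC19G7.06) is a plus-strand gene of 4 exons on chromosome II (2358499 to 2361156 in the ASM294v3 assembly, coding sequence 2359429 to 2361092). It had 4585, 4284 and 5211 counts with thiamine and 630, 542 and 555 without. Normalized, these were 94.2, 89.2 and 96.6 CPM with thiamine and 16.4, 14.2 and 16.1 CPM without. Each of the 3 thiamine cultures stood far above every culture without thiamine, and the spread within a group was small. The means were 93.3 ± 3.79 CPM with thiamine and 15.6 ± 1.20 CPM without (SD, n = 3 each), and the log2 fold change was 2.59 (SE 0.09, 95% interval 2.38 to 2.79, adjusted p = 2.19e-07, edgeR quasi-likelihood test with Benjamini-Hochberg values). Per kb over all 2368 bp of exon, *mbx1* had 39.4 ± 1.60 CPM with thiamine, above 68.2% of the 4737 protein-coding genes. Without thiamine it had 6.57 ± 0.508 CPM, above 25.7% of them. Both levels would be higher if only the part that no other gene overlaps was counted.

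The counts of *mbx1* come with a limit of the locus. On the opposite strand *ppr3*, which encodes a mitochondrial pentatricopeptide repeat protein, shares 1783 bp with *mbx1*, including all of the *mbx1* coding sequence. Only 875 bp of *mbx1* lie outside it, all in the leader before the coding sequence. Libraries were stranded, but whether the counting used strand is not given in the sources used here. Coding genes free of any overlap had a median of 1191 counts per kb in a library, against 8.27 for those with more than 95% of their length covered by other genes. The deposited start of *mbx1* also lies to the left of the RefSeq start used here, so the counted leader may be longer. From which part of the gene the counts came was not tested. *ppr3* had 25.5 ± 2.32 CPM with thiamine and 17.6 ± 1.04 CPM without, a log2 fold change of 0.53 (SE 0.10) whose call was lost with upper-quartile normalization and with length and GC trends removed.

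The study's RT-qPCR primers for *mbx1* are shown because they mark the stretch that assay read. Both lie inside the part shared with *ppr3*. In the forward primer the capitals are the 4 bases that fall in the next exon, since it spans the junction between 2359479 and 2359547. The reverse primer covers 2359641 to 2359660, and the product is 132 bp in the spliced transcript.
Mbx1-F: tcatctcctcgccgttctATAC
Mbx1-R: gaccaccactttagcatcac

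Genes on either side of *mbx1* were also higher with thiamine. *bgs1*, the catalytic subunit of the glucan synthase of the division septum, starts 1134 bp away and is transcribed in the other direction. It had 495.7, 478.1 and 767.2 CPM with thiamine and 61.1, 57.4 and 57.2 CPM without, a log2 fold change of 3.31 (SE 0.19, adjusted p = 1.95e-06, edgeR). To the right, *art1* had a log2 fold change of 2.60 (SE 0.19, 148 ± 43.7 CPM with thiamine and 24.6 ± 2.06 CPM without). In both neighbours replicate 3 was the highest thiamine library by a wide margin, which was not so in *mbx1*.

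**Figure D2:**
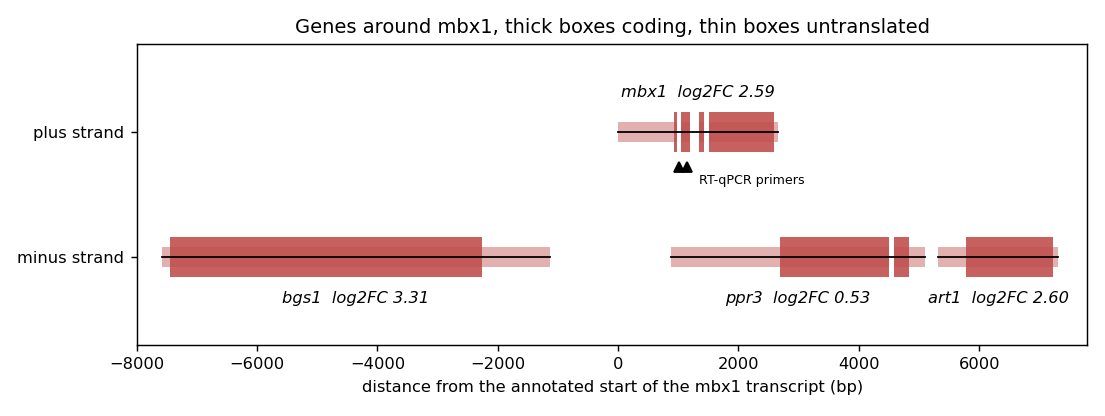
Genes around *mbx1*, plotted by distance from its annotated start (bp, horizontal axis) and by strand (vertical axis), with thick boxes for coding and thin boxes for untranslated sequence and triangles for the RT-qPCR primers. *bgs1* (3.31), *mbx1* (2.59) and *art1* (2.60) had larger log2 fold changes than *ppr3* (0.53), which covers the coding sequence of *mbx1*.

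*mbx2*, a MADS-box gene outside the 6 and a regulator of flocculin genes, had few counts. They were 26, 14 and 23 with thiamine and 4, 2 and 1 without, a log2 fold change of 2.68 (SE 0.53, adjusted p = 0.00188, edgeR). All of its 2020 bp are overlapped by other genes, a position where counts were low in general.

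*fkh2* (SPBC16G5.15c, chromosome II, 4239333 to 4242718, minus strand, 2 exons, coding sequence 4240442 to 4242662) had 4379, 4723 and 6750 counts with thiamine and 1404, 1269 and 1314 without. These were 89.9, 98.3 and 125 CPM with thiamine and 36.6, 33.2 and 38.0 CPM without. The groups did not overlap, and replicate 3 was the highest of the thiamine libraries. The means of 104 ± 18.4 CPM with thiamine and 35.9 ± 2.48 CPM without (SD, n = 3 each) gave a log2 fold change of 1.54 (SE 0.13, 95% interval 1.25 to 1.83, adjusted p = 1.2e-05, edgeR). Only 29 bp of the gene are shared with others. Per kb of exon it had 33.8 ± 5.94 CPM with thiamine and 11.6 ± 0.803 CPM without.

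*sep1* (SPBC4C3.12, chromosome II, 3133220 to 3136104, minus strand, 1 exon, coding sequence 3133495 to 3135486) shares no base with another gene. It had 3358, 3178 and 3298 counts with thiamine and 2544, 2262 and 2082 without, which were 69.0, 66.1 and 61.1 CPM with thiamine and 66.3, 59.1 and 60.2 CPM without. The groups overlapped, and the means were 65.4 ± 3.96 CPM with thiamine and 61.9 ± 3.83 CPM without (SD, n = 3 each). The log2 fold change was 0.08 (SE 0.08, 95% interval -0.11 to 0.27, adjusted p = 0.41, edgeR), and it was -0.21 with upper-quartile normalization and -0.15 with length and GC trends removed. Scaling by library totals gave 0.65 (adjusted p = 0.00599, edgeR) and by totals without rRNA 0.40 (adjusted p = 0.00529), each close to the shift of all genes under that scaling. Per kb of exon *sep1* stood near the middle of the protein-coding genes, above 53.4% of them with thiamine and 55.2% without.

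The balance between the activator gene and the repressor gene differed between the groups. The log2 ratio of *sep1* to *fkh2*, in which the scaling of a library cancels, was -0.38, -0.57 and -1.03 with thiamine and 0.86, 0.83 and 0.66 without. Per kb of exon, too, *fkh2* was above *sep1* in every thiamine culture and *sep1* above *fkh2* in every culture without thiamine. The difference of -1.45 had an exact two-sided permutation p of 0.1, the smallest that 3 against 3 cultures allow. With *sep1* not called (log2 fold change 0.08) and *fkh2* higher (1.54), this ratio mostly restates the change of *fkh2* and is no separate support for it. The log2 ratio of *mbx1* to the mean of the other 5 genes was 1.28, 1.20 and 1.07 with thiamine and -1.06, -1.13 and -0.77 without. The difference was 2.17, with the same exact permutation p of 0.1. Since *mbx1* had the largest change of these genes, this ratio mostly restates that change and is no separate support for it.

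The 250 bp before the annotated start of each gene were searched on both strands for the PCB element (GNAACA or GNAACG), the forkhead core (GTAAACA) and a CArG-like motif of MADS-box proteins (CC and GG with any 6 bases between them). These occur in 59.4%, 14.8% and 13.1% of 5112 promoters. The promoter of *fkh2* is shown because it holds elements that its own complex is known to bind: 2 PCB elements, 152 and 29 bp before the start, and a forkhead core on the opposite strand at 172 bp. That of *mei4* is shown as the other one with a forkhead core, at 87 bp on the opposite strand. The *fkh2* window lies wholly within the non-coding gene *SPNCRNA.439* on the other strand (4242697 to 4243538). The *mei4* window lies wholly within *cdk9* on the same strand (1470568 to 1473182). These sites are thus also inside other annotated genes. Both windows are from ASM294v3, read along the gene's strand, with PCB elements and forkhead cores in capitals (*fkh2*, chromosome II, 4242719 to 4242968, minus strand, and *mei4*, chromosome II, 1472818 to 1473067, plus strand).
fkh2: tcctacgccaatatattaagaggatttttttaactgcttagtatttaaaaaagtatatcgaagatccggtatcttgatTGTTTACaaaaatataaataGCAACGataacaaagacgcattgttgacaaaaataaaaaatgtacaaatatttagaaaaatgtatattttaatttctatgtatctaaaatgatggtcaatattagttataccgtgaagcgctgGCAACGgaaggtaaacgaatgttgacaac
mei4: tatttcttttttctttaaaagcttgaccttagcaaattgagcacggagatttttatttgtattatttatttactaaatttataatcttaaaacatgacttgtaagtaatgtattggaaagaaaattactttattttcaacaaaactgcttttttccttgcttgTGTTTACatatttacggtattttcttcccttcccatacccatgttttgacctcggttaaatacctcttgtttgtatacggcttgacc

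The *map1* window held 2 PCB elements, at 205 and 97 bp, and that of *mbx1* a CArG-like match at 36 bp. The *map1* element at 205 bp lies inside the neighbouring gene *sea3*, which ends at 5292558. None of the searched letters were found in the windows of *sep1* and *fhl1*. The core of the TR-box of the activator Ste11 (TTCTTTGTT), present in 1.62% of the 5112 promoters, was also searched and found in no member's window. Of the 2 genes with a forkhead core, *fkh2* was higher with thiamine and *mei4* was not called, and of the 2 with PCB elements *fkh2* was higher and *map1* lower.

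Of 7 genes at the M-G1 boundary listed as targets of the PCB-binding complex, all were tested, 3 were called higher and 1 lower. Their median log2 fold change was 0.04, beside -0.01 over the whole table. *spo12*, which acts in mitotic exit, had a log2 fold change of 2.27 (58.7 ± 12.6 CPM with thiamine and 12.1 ± 0.511 CPM without, SD, n = 3 each), although 2656 of its 3802 bp are overlapped by other genes. *slp1*, the activator of the anaphase-promoting complex, had 2.03 (102 CPM with thiamine and 24.8 CPM without), and the NIMA kinase gene *fin1* had 1.23. *sid2*, a kinase gene of the septation initiation network, was lower, at 38.5, 36.8 and 21.0 CPM with thiamine and 73.1, 66.6 and 67.2 CPM without (log2 fold change -1.10, SE 0.20, adjusted p = 0.00111, edgeR). The genes not called were *cdc15* (0.02, negative with upper-quartile normalization and with trends removed), *mid1* (0.04, negative under the same settings) and the Polo kinase gene *plo1* (-0.14, positive with library totals with or without rRNA).

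Among 7 genes of cell separation that depend on *sep1* for their periodic expression, 3 were higher and 3 lower, with a median of -0.10. *adg1*, which encodes a cell surface glycoprotein, had 24.1, 25.4 and 8.73 CPM with thiamine and 99.8, 96.3 and 131 CPM without (log2 fold change -2.49, adjusted p = 0.000251, edgeR). *eng1*, the endo-glucanase that dissolves the primary septum, had 121, 130 and 68.1 CPM with thiamine and 53.8, 47.5 and 45.5 CPM without (log2 fold change 1.12, adjusted p = 0.00152). In every thiamine culture *adg1* lay below all controls and *eng1* above them, and replicate 3 was the lowest thiamine library for both genes. *adg2* had a log2 fold change of 0.88 with overlapping groups, and its call was lost with upper-quartile normalization and with trends removed. The others called were *adg3* (0.38, negative with trends removed), *agn1* (-0.59, not called with library totals) and *cfh4* (-0.31, positive with library totals with or without rRNA).

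*map1* (SPAC11E3.06, chromosome I, 5292705 to 5294751, plus strand, 3 exons) was the one member called lower. It had 176, 149 and 182 counts with thiamine and 502, 463 and 231 without. In CPM these were 3.61, 3.101 and 3.37 with thiamine and 13.1, 12.1 and 6.68 without. The groups did not overlap, but in CPM replicate 3 without thiamine stood nearer to the thiamine cultures than to the other controls. On a log2 scale it lay about midway between them. The means were 3.36 ± 0.257 CPM with thiamine and 10.6 ± 3.44 CPM without (SD, n = 3 each), and the log2 fold change was -1.66 (SE 0.24, 95% interval -2.21 to -1.11, adjusted p = 0.000284, edgeR), or -1.91 without that culture. Per kb of exon, *map1* had 1.99 ± 0.152 CPM with thiamine, the lowest of the 6 genes, and 6.27 ± 2.03 CPM without. If reads were counted over the whole exon length, *map1* without thiamine was above *mbx1* in replicates 1 and 2 and below it in replicate 3. A minus-strand RNA gene, *map1-antisense-1*, covers 564 of its 2047 bp and had 4, 8 and 10 counts with thiamine and 16, 21 and 8 without.

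The 3 P cell genes that Map1 is known to activate did not move together. *map4*, the adhesion protein of P cells, had 99.5, 103 and 88.7 CPM with thiamine and 25.4, 22.9 and 20.8 CPM without (log2 fold change 2.07, adjusted p = 8.31e-07, edgeR). *map2*, the precursor of the P-factor pheromone, had 3.39, 3.56 and 4.36 CPM with thiamine and 1.80, 1.83 and 2.26 CPM without (log2 fold change 0.94, adjusted p = 0.00157). *map3*, the receptor for M-factor, had 1.66, 1.46 and 1.85 CPM with thiamine and 3.54, 3.16 and 2.11 CPM without (-0.83, adjusted p = 0.0114, edgeR), with 1755 of its 1758 bp overlapped. The call of *map3* was lost with library totals, with or without rRNA, and without control replicate 1. The lower *map1* level thus stood beside higher levels in *map4* and *map2* and a lower one in *map3*.

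The genotype label gives the mating type h+ (P). *mat2-Pc* had 574, 657 and 627 counts with thiamine and 636, 514 and 378 without, while *mat1-Mc* had 8, 12 and 38 with thiamine and 11, 3 and 31 without. These mating type genes have near-identical copies and were chosen after their values were seen. Of 7 genes specific to M cells, 6 were tested, 3 were higher and 1 was lower, the median log2 fold change being 0.41 (*mfm3* was not analysed here). The called genes were the adhesion gene *mam3* (1.91), the M-factor precursor gene *mfm1* (1.05), the carboxypeptidase gene *sxa2* (0.71) and, lower, the P-factor receptor gene *mam2* (-1.56, 9.72 CPM with thiamine and 28.7 CPM without). *mfm2* and *mam1* were not called, and *mam1* (0.12) was negative with upper-quartile normalization and with trends removed. The adhesion genes of both mating types therefore had log2 fold changes near 2, and each also had a pheromone receptor gene called lower, of which only *mam2* kept its call under each scaling.

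Upstream of *map1* and *mei4*, 4 of 5 listed regulators were higher and 1 was lower, where 34.5% and 35.3% of all genes were, with a median of 1.66. *ste11*, the HMG-box activator of sexual development that switches on *map1* and *mei2*, had 103, 106 and 129 CPM with thiamine and 37.5, 35.5 and 33.9 CPM without (log2 fold change 1.66, adjusted p = 2.61e-06, edgeR). *rst2*, a zinc finger activator of *ste11*, had 2.68 (385 CPM with thiamine and 60.0 CPM without). *pat1*, the kinase that holds back meiosis, had 1.43, and *mei3*, whose product inhibits Pat1, had 3.84 (17.1 CPM with thiamine and 1.19 CPM without). *mei2*, the RNA-binding protein that starts meiosis, was lower, at 7.003, 7.74 and 5.47 CPM with thiamine and 51.6, 51.9 and 46.6 CPM without (log2 fold change -2.89, adjusted p = 6.47e-07). *map1* and *mei2*, both known to be activated by Ste11, were both lower where *ste11* mRNA was higher. The mating type specific genes went both ways. *map4*, *map2*, *mam3*, *mfm1* and *sxa2* were higher, *map3* and *mam2* were lower, and *mfm2* and *mam1* were not called. Whether targets of Ste11 moved together was not tested.

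**Figure D3:**
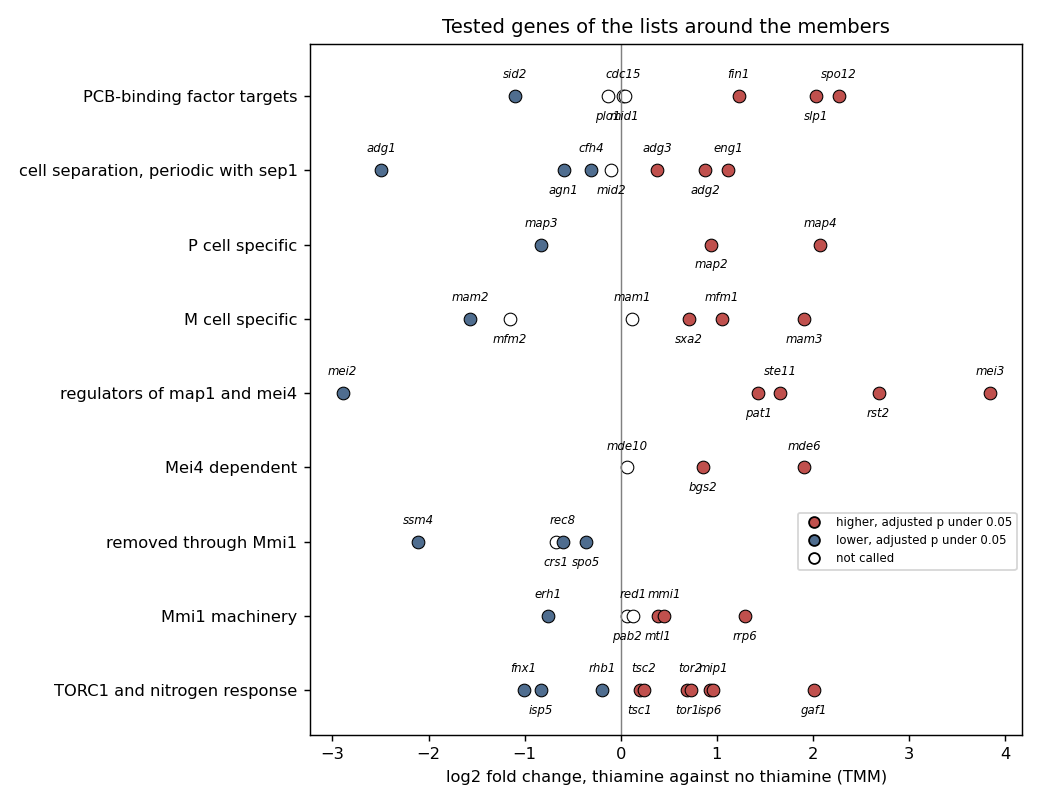
Log2 fold change of thiamine against no thiamine (horizontal axis) for the tested genes of 9 lists (vertical axis), red where called higher, blue where called lower and white where not called. Called genes lie on both sides of 0 in 7 of the 9 lists, *mei3* (3.84) and *mei2* (-2.89) being the farthest out.

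*mei4* (SPBC32H8.11, chromosome II, 1473068 to 1475285, plus strand, 1 exon, coding sequence 1473194 to 1474747) had 1004, 1034 and 1631 counts with thiamine and 1246, 972 and 759 without. In CPM these were 20.6, 21.5 and 30.2 with thiamine and 32.4, 25.4 and 22.0 without. The groups overlapped, and thiamine replicate 3 lay between the 2 highest controls. The means were 24.1 ± 5.31 CPM with thiamine and 26.6 ± 5.35 CPM without (SD, n = 3 each), and the log2 fold change was -0.14 (SE 0.18, 95% interval -0.56 to 0.27, adjusted p = 0.509, edgeR). It was 0.021 without control replicate 1, 0.45 with library totals (adjusted p = 0.0429, edgeR) and -0.44 with upper-quartile normalization (adjusted p = 0.0465), so its direction rested on the scaling. Its first 115 bp are shared with *cdk9*, which encodes a transcription kinase, and its end faces *act1*, which had 1990 CPM with thiamine and 2036 CPM without.

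In vegetative cells the RNA-binding protein Mmi1 recognizes hexamers of the form TNAAAC in meiotic transcripts, among them that of *mei4*, and leads them to the nuclear exosome. The exon sequence of *mei4* held 11 such hexamers, 4.96 per kb, more per kb than 98.2% of 5039 genes, whose median was 1.64. Of the other members *fhl1* had 2.37 per kb and *mbx1* 0.42. The densest stretch of *mei4* is shown because 5 of its 11 hexamers, in capitals, fall in 134 bp of the coding sequence (chromosome II, 1473878 to 1474011, plus strand, ASM294v3).
mei4: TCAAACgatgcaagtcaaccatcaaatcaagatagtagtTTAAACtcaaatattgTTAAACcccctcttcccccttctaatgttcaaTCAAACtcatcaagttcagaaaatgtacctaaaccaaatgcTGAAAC

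Other transcripts known to be removed through Mmi1 had still more of these hexamers, 5.74 to 8.03 per kb in the 5 listed. Of these, 4 were tested, all with negative log2 fold changes (median -0.64), and 3 were called lower, where 35.3% of all genes were. *ssm4*, the meiotic dynactin subunit, had 7.003, 6.60 and 7.14 CPM with thiamine and 36.3, 26.5 and 26.5 CPM without (log2 fold change -2.11, adjusted p = 3.61e-06, edgeR). *rec8*, the meiotic cohesin, had -0.60, and *spo5*, a meiotic RNA-binding protein, had -0.36, which was positive with library totals. Both calls were lost with library totals, with or without rRNA. The meiotic cyclin gene *crs1* was not called (-0.67), and *num1*, a dynein anchor with all of its 3308 bp overlapped by other genes, had too few counts to be tested. Of the 6 genes of the removal machinery, *rrp6*, the exosome nuclease, had 120 CPM with thiamine and 48.9 CPM without (1.29, adjusted p = 2.83e-06), *mmi1* had 0.45 and *mtl1* 0.38. *erh1*, the partner of Mmi1, was lower (-0.76), and *red1* and *pab2* were not called. The calls of *mmi1* and *mtl1* were lost with upper-quartile normalization and with trends removed, the 3 higher calls came to 1 without any 1 of the control libraries, and that of *erh1* with library totals.

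Most of the listed genes that Mei4 switches on in meiosis could not be tested. Of 11 listed, *mde2* was not analysed here, 3 were tested, and *spo6*, *mde3*, *mde5*, *mde7*, *spn5*, *spn6* and *spn7* had 0 to 25 counts per library and did not pass the filter on low counts. Of these 7, *spo6*, *mde3*, *mde5* and *mde7* are overlapped over their whole length and *spn6* over 1903 of 1961 bp, positions where counts were low in general, so their counts do not give the level of these genes. *mde6* had 13.5, 13.1 and 13.4 CPM with thiamine and 3.57, 3.71 and 3.33 CPM without (log2 fold change 1.91, adjusted p = 1.63e-06, edgeR), with 2555 of its 3463 bp overlapped. *bgs2*, the glucan synthase of the spore wall, had a log2 fold change of 0.85. *mde10*, an ADAM-family metalloprotease of spores, was not called (0.06, negative with upper-quartile normalization).

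*fhl1* (SPAC1142.08, chromosome I, 3639812 to 3642338, plus strand, 1 exon, coding sequence 3639988 to 3642219) had the highest level per kb of the 6 genes with thiamine, if reads were counted over the whole exon length of each. Its counts were 9019, 9612 and 14270 with thiamine and 1790, 1852 and 1604 without, or 185, 200.1 and 264 CPM with thiamine and 46.6, 48.4 and 46.4 CPM without. The groups lay far apart, with replicate 3 again the highest thiamine library. The means were 217 ± 42.2 CPM with thiamine and 47.2 ± 1.10 CPM without (SD, n = 3 each), and the log2 fold change was 2.20 (SE 0.14, 95% interval 1.89 to 2.51, adjusted p = 2.53e-06, edgeR), or 2.02 without thiamine replicate 3. Per kb of exon it had 85.7 ± 16.7 CPM with thiamine, above 83.0% of protein-coding genes, and 18.7 ± 0.437 CPM without it, above 51.3%. A non-coding gene shares 103 bp with its start and had 0 to 3 counts per library.

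Of 10 listed genes of TORC1 signalling and the nitrogen response, 7 were called higher and 3 lower, where 34.5% and 35.3% of all genes were, and the median log2 fold change was 0.46. With length and GC trends removed 3 were higher and 3 lower, and without control replicate 1 the counts were 5 and 2. *gaf1*, a GATA factor of the nitrogen response, had 266, 276 and 370 CPM with thiamine and 74.6, 76.3 and 75.8 CPM without (log2 fold change 2.01, adjusted p = 3.71e-06, edgeR). As for *fhl1*, thiamine replicate 3 was the highest library. *mip1*, the Raptor subunit of TORC1, had 0.96, and *fnx1*, a vacuolar amino acid transporter, had -1.01 (23.9 CPM with thiamine and 48.2 CPM without). *tor2*, the kinase of TORC1, had 0.73, a call lost with length and GC trends removed. The smaller values of *tsc1*, *tsc2* and *rhb1* changed sign under other scalings. *tsc1* was called higher with TMM (0.20, adjusted p = 0.0327, edgeR). With length and GC trends removed it was called lower (-0.34, adjusted p = 0.00301, edgeR) and is among the 3 lower genes of that setting.

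**Figure D4:**
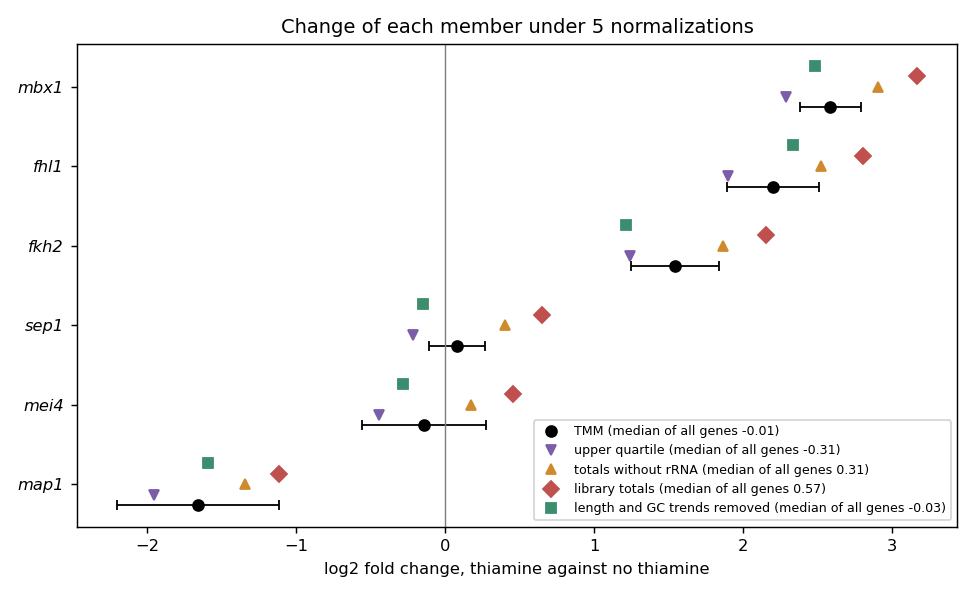
Log2 fold change of thiamine against no thiamine (horizontal axis) for the 6 genes (vertical axis) under 5 normalizations, with the 95% interval of the TMM fit as bars. *mbx1*, *fhl1* and *fkh2* stay above 0 and *map1* below 0 under each, whereas *sep1* and *mei4* lie on either side of 0.

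The order of the levels per kb differed between the groups. It takes the whole exon length of each gene, and the level of *mbx1* would be higher if only its 875 bp outside *ppr3* were counted. With thiamine it ran *fhl1* (85.7 CPM per kb), *mbx1* (39.4), *fkh2* (33.8), *sep1* (22.7), *mei4* (10.9) and *map1* (1.99). The ranges of neighbouring genes overlapped only for *mbx1* and *fkh2*. Without thiamine the order was *sep1* (21.4), *fhl1* (18.7), *mei4* (12), *fkh2* (11.6), *mbx1* (6.57) and *map1* (6.27), and the last 4 fell into 2 pairs whose ranges overlapped.

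Over the 6 libraries, the genes whose centred log2 CPM lay closest to each member were *ppr5*, *spc7* and *pdc201* for *mbx1* (root mean square distance 0.06 to 0.09 on the log2 scale). They were *pzh1*, *psp3* and *pob1* for *fkh2* (0.04 to 0.06) and *bdf2*, *vid27* and *puf1* for *fhl1* (0.06). For *map1* they were *ste4*, *spf38* and *ish1* (0.19 to 0.23), for *sep1* *ync13*, *psm1* and *iss10* (0.03 to 0.04), and for *mei4* *mug16*, *cds1* and *red5* (0.10 to 0.12). Such likeness was common for the genes that were higher with thiamine, as 1053 genes for *mbx1*, 1081 for *fkh2* and 1101 for *fhl1* reached a Pearson correlation of 0.95 over the same 6 libraries, which share the group difference. For *sep1* only 1 gene did and for *mei4* 3. Ranked by that correlation instead, only *ync13* and *cds1* stayed among the closest 3 of their member.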

How the data were processed

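The authors deposited whole-number counts of reads per gene for 6 libraries, from a stranded library kit for polyadenylated RNA. The submitters' processing notes name STAR and DESeq2, and the counting program and genome build are not given in the sources used here. The deposited count table was used as it stands, and no per-sample column was left over (0). A second deposited table holds the authors' own comparison (mean normalized count, log2 fold change, its standard error, test statistic, p-values), of which only gene names and positions were used. Gene positions, exons and sequences came from ASM294v3 with its RefSeq annotation. These positions overlapped the deposited ones for 99.984% of 6233 genes.

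Differences were fitted in edgeR 4.0.16 (R 4.3.3) by its quasi-likelihood method, with robust estimation, TMM scaling, the default filter on low counts (5434 genes kept) and Benjamini-Hochberg adjustment over all tested genes. A call is an adjusted p under 0.05. CPM are TMM-normalized counts per 1000000, and log ratios used a prior count of 2. The edgeR p-values set the difference between the groups against the spread among the 3 cultures of a group, estimated with information shared between genes. No 2 libraries were the same within sampling noise. The fit was run on simulated counts with 200 changed genes, far fewer than were called here. That run cannot show how the fit behaves where most genes are called. Alternatives were DESeq2 1.42.0, other normalizations and filters, removal of length and GC trends by loess (span 0.5), the replicate number as a block, and leaving out each library. The members and the 9 gene lists were chosen with earlier results of these data known, and the lists come from general knowledge. The text names all members, *mbx2*, up to 3 genes of each list with the largest change or as many as account for a small count, overlapping and neighbouring genes, the 3 genes closest to each member among genes whose average log2 CPM reached 3, and *nup211*, *ura4* and *act1*. Comparison of the proteins was not made here.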

Additional observations from a re-analysis of the deposited data

How the results depend on the processing

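*mbx1*, *map1*, *fkh2* and *fhl1* kept their direction and their call in each of the 17 settings tried. Their log2 fold changes ranged over 2.29 to 3.17, -1.96 to -1.11, 1.21 to 2.15 and 1.90 to 2.81, and with each library left out in turn over 2.52 to 2.62, -1.91 to -1.49, 1.38 to 1.63 and 2.02 to 2.29. *sep1* and *mei4* followed the scaling. *sep1* was -0.21 with upper-quartile normalization, -0.15 with length and GC trends removed, with or without the replicate block (-0.15), 0.40 with totals without rRNA and 0.65 with library totals, where it was called, and 0.03 to 0.13 with a library left out. *mei4* was 0.18 with totals without rRNA, 0.45 with library totals and -0.44 with upper-quartile normalization, the last 2 called, and -0.35 to 0.021 with a library (0.021 without control replicate 1) left out. Library totals thus gave 5 members called higher in place of 3, and upper-quartile normalization 2 called lower in place of 1. Of all genes, 1877 were called higher and 1917 lower with TMM, 2534 and 1193 with totals without rRNA, 2724 and 588 with library totals, and 1368 and 2583 with upper-quartile normalization. No pairing by replicate number was seen in the counts, as the deviations of same-numbered cultures correlated at -0.005, 0.086 and -0.028. These values cannot show whether same-numbered cultures were grown or processed together. With the replicate block, *mbx1* was 2.59, *map1* -1.61, *fkh2* 1.53, *fhl1* 2.18, *sep1* 0.08 and *mei4* -0.15, and no call among the members changed. Among the lists, the genes of the Mmi1 machinery called higher were 3 with TMM, 5 with library totals with or without rRNA and 1 with upper-quartile normalization, with trends removed or without any 1 of the control libraries. The TORC1 list had 3 called higher in place of 7 with trends removed and 1 called lower in place of 3 with library totals. Of the PCB targets, 5 were called higher in place of 3 with library totals, and 2 (trends removed) or 3 (upper quartile) lower in place of 1. Of the cell separation genes, 1 was higher in place of 3 with upper-quartile normalization or trends removed, and 1 lower in place of 3 with library totals. Of the M cell genes, 2 (upper quartile, or without control replicate 1) or 3 (trends removed) were lower in place of 1. With library totals, with or without rRNA, 1 of the transcripts removed through Mmi1 was lower in place of 3. With 3 cultures a group, small changes such as those of *sep1* and *mei4* are bounded only by their intervals.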
